A study of Homo sapiens with 6 samples.

Results

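The CELF1 RIP-Seq lists of SK-Mel-103 and UACC-62 were examined for 10 genes that control passage through G1, namely the D-type cyclins CCND1, CCND2 and CCND3, their kinases CDK4 and CDK6, the E-type cyclins CCNE1 and CCNE2, the CDK inhibitors CDKN1A and CDKN1B, and the retinoblastoma gene RB1. They were chosen by name, out of 19834 protein-coding genes of the annotation, and their exons held 1085, 1005 and 1082 of the 816781, 780750 and 862731 listed bins of 20 bp. Where 3 values follow each other, the first is that of the SK-Mel-103 sample, and the others are those of UACC-62 replicates 1 and 3. SK-Mel-103 and UACC-62 are established human melanoma cell lines, with no genetic change or drug treatment named in the labels. CELF1 (also called CUGBP1) was pulled down from formaldehyde-fixed cells with 1 antibody, and every pulldown (IP) was set against the input RNA of its own cells. SK-Mel-103 had 1 IP sample, and UACC-62 had 2, which the design describes as biological duplicates. With 1 sample of SK-Mel-103, the line and the sample cannot be told apart, and no test between lines or against input was made.

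CELF1 is an RNA-binding protein known for recognising GU-rich elements (GREs), above all in 3′ UTRs, where it can shorten poly(A) tails, destabilise the message or alter its translation. In G1, D-type cyclins activate CDK4 and CDK6, which begin the phosphorylation of RB1 and so loosen its hold on E2F factors. E-type cyclins with CDK2 complete that step, while CDKN1A (p21) and CDKN1B (p27) hold the cyclin-CDK complexes in check. CCND1 and CDKN1A are among the messages that CELF1 has been described to bind in other settings.

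Listed bins summed to 10958459, 11333805 and 14436573 reads for the IP, and to 8453517, 10161917 and 8900292 for the input. Of the melanocytic markers, SOX10 had 864, 2115 and 1080 input reads, whereas MITF had 18, 6034 and 5000, and TYR, DCT and S100B had no listed bin in SK-Mel-103. PMEL and TYRP1 had no listed bin in any sample. The keratinocyte genes KRT5 and KRT14 had none either, and the leukocyte gene PTPRC had 0, 3 and 0 input reads. The CELF1 message itself was above input in each sample, with log2 IP over input of 2.63, 3.34 and 3.26.

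Peaks shared by all 3 IP samples were found in 4 of the 10 messages, CCND1, CDK6, CDKN1A and CDK4. A shared peak was the same bin with more than 30 IP reads and a p-value under 0.05 in every sample. At least 1 was held by 8.71% of all protein-coding genes. That share also counts genes with few or no listed reads: 8565 of 19834 genes, but 9 members, had at least 20 reads in each sample. CDK6 held 355 such bins, CCND1 131, CDKN1A 11 and CDK4 1. CCND3, CCNE1, CCNE2, CDKN1B and RB1 were listed in each sample but had no shared peak. CCND2 had no listed bin in its exons, in its introns or on the opposite strand in any sample, so that no value can be given for it.

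The log2 ratio of IP to input was above 0 in every sample for CCND1, CDK6 and CDKN1A, and for no other measured member. It was computed from the summed reads of all listed exonic bins, divided by the total reads of each list, so that 0 on the log2 scale is the average over all listed reads. The ratio applies only to bins that had passed, since input outside the lists is unknown. Of the 9 members with at least 20 IP and input reads together in every sample, 3 were above 0 in all samples, against 27.2% of the 8565 genes that met the same condition. Another 5 members (CCND3, CDK4, CCNE2, CDKN1B and RB1) were below 0 in all samples, against 50.5% of those genes, although CDK4 and CDKN1B alone stayed so when reads were not divided by totals, and CCND3 left this set when each sample was centred on its median gene. Centring also moved the split of all genes above and below 0 to 39.1% and 39.2%. CCNE1 had values of both signs. The median of the 9 members was -0.17, -0.84 and -0.59, beside -0.20, -0.61 and -0.39 for all genes measured. The list was therefore near the typical gene by its median, with CCND1 and CDK6 at the upper end of all genes and CDK4 at the lower end.

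**Figure D1:**
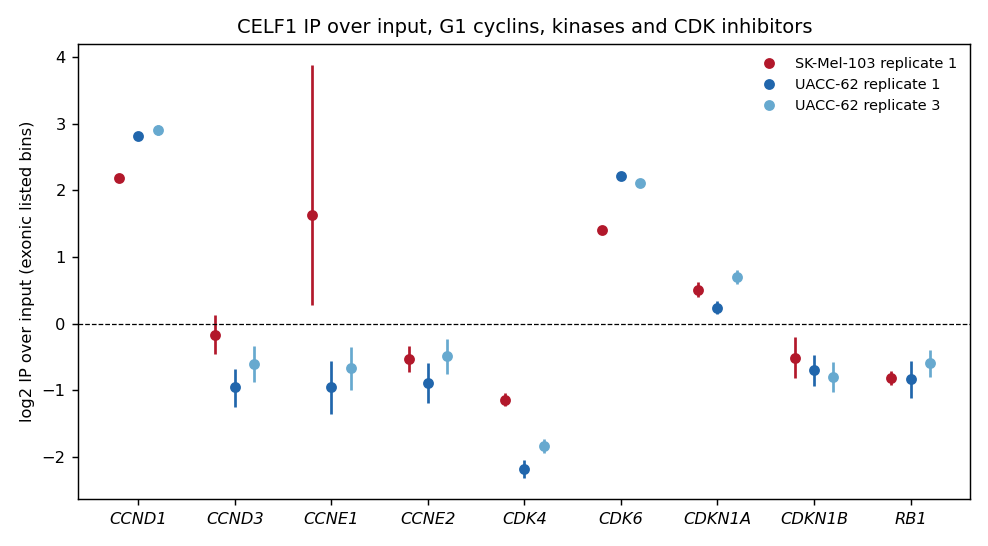
Log2 IP over input of the 9 measured members (x axis) in SK-Mel-103 replicate 1 (red), UACC-62 replicate 1 (dark blue) and UACC-62 replicate 3 (light blue). Points are values over all listed exonic bins, bars are 95% intervals for counting error only, and the dashed line is the average over all listed reads; CCND1, CDK6 and CDKN1A lie above the line in every sample, and the wide interval of CCNE1 in SK-Mel-103 rests on 19 IP and 4 input reads.

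CCND1, the D-type cyclin most often linked to proliferation, was among the most heavily sampled messages of the pulldown. Its exons (chromosome 11, GRCh37 positions 69455924 to 69469242, forward strand) held 51389, 19262 and 22065 IP reads over 8713, 2451 and 1812 input reads. By IP reads it ranked 3rd, 40th and 53rd of all genes, and it took 0.469%, 0.170% and 0.153% of all listed IP reads. The log2 ratio of CCND1 was 2.19 (95% interval 2.15 to 2.22) for SK-Mel-103, and 2.82 (2.76 to 2.88) and 2.91 (2.84 to 2.98) for the UACC-62 replicates, with a UACC-62 mean of 2.86 ± 0.06 (SD, n = 2). These ratios placed CCND1 at percentiles 98.2, 98.7 and 98.6 of the measured genes. The binomial intervals, here and elsewhere, cover counting error only, since amplified reads are not independent molecules.

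The SK-Mel-103 ratio of CCND1 lay below both UACC-62 replicates although its reads were higher there. RPKM here counts the reads of listed bins only, per kb of exon and 1000000 listed reads. In this unit, the input level was 238 against 55.6 and 47.0 in UACC-62, and the IP level was 1082 against 392 and 352. SK-Mel-103 was thus the highest of the 3 samples for both input and IP, and the lowest for their ratio. In bulk RNA, fewer cells that express a gene and less RNA per cell cannot be told apart. Nearly all possible exonic bins of CCND1 were listed in each sample (201, 198 and 199 of 217).

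CCND1 reads lay almost wholly in the 3′ UTR, which makes up 3439 of its 4336 exonic nt. The 3′ UTR held 96.3%, 97.1% and 95.6% of its IP reads, beside 73.2%, 78.8% and 76.8% over all protein-coding genes. It also held 128 of the 131 shared peaks, with the other 3 in the coding region. Input lay mostly there as well. The log2 ratio of 3′ UTR bins alone was 2.30 against 2.19 for all exonic bins in SK-Mel-103, and 2.98 against 2.86 as the UACC-62 mean. When the 3′ UTR was cut into 3 equal stretches from the stop codon, the log2 ratio of the first stretch was 2.06, 2.59 and 2.88. The middle stretch gave 2.16, 2.64 and 2.83. The last stretch, toward the poly(A) tail, gave 2.83, 3.72 and 3.44 and was the highest in every sample. The bin profile was alike between samples, with a Pearson correlation of IP reads over 196 bins of 0.95 for SK-Mel-103 with UACC-62 replicate 1, 0.93 for SK-Mel-103 with the other replicate, and 0.87 between the UACC-62 replicates. Bins of 1 message share its abundance and mappability, and the Spearman correlation of the log2 ratios, which removes part of that, was 0.77, 0.65 and 0.62 for the same pairs.

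**Figure D2:**
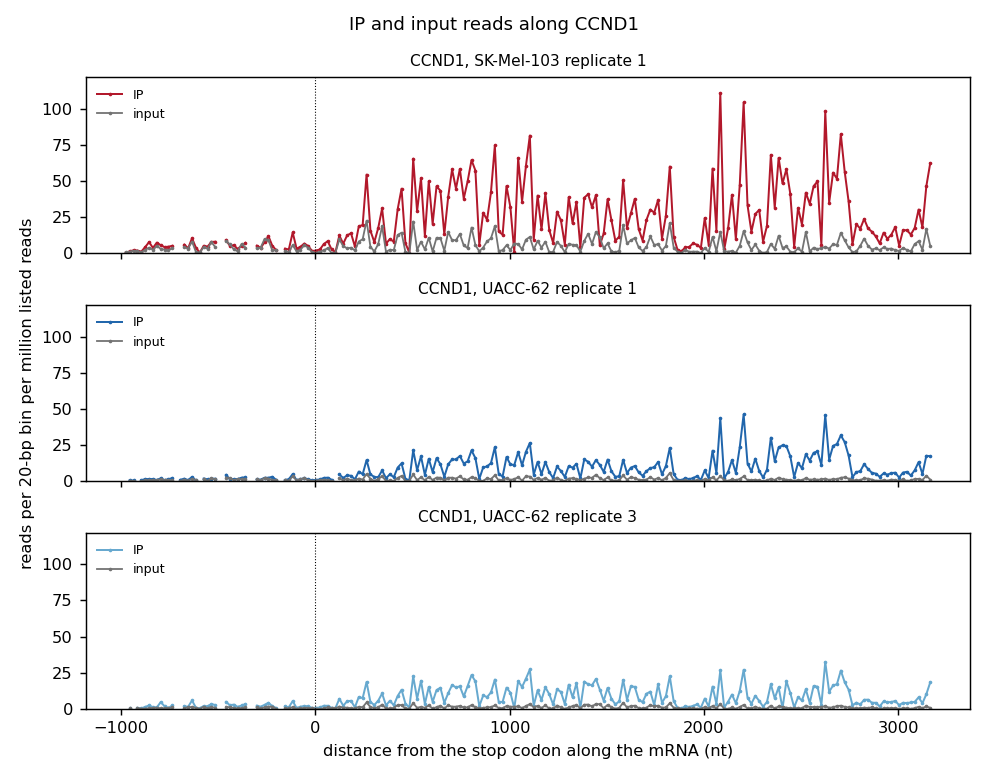
IP reads (coloured) and input reads (grey) of CCND1 in 20-bp bins, per 1000000 listed reads (y axis), against the distance from the stop codon along the mRNA in nt (x axis), with 1 panel per sample and gaps where a bin was not listed. IP exceeds input over most of the 3′ UTR, and the bin 2624 nt after the stop codon (1076, 517 and 468 IP reads) lies in the stretch with the highest ratio.

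The CCND1 bins with the most IP reads and with the highest ratio are printed with its 3 GREs, to set the letters beside the reads. Here and for the other members, both were ranked by the lowest value of the 3 samples. The ratio was ranked among shared peaks only. GREs were 11-nt stretches within 2 mismatches of the repeats UGUGUGUGUGU or UGUUUGUUUGU, searched on the transcript strand only. Capitals mark each UGU, the core triplet of both repeats, and all sequences are GRCh37 reference sequence of the transcript strand.
CCND1 bin with most IP reads, chr11:69468661-69468680: ucUGUuaUGUacuagUGUuc
CCND1 bin with highest ratio, chr11:69467241-69467260: cagucaagaagaaaaagguu
CCND1 GRE 138 nt after the stop codon, chr11:69466180-69466190: ugguUGUuuuu
CCND1 GRE 343 nt after the stop codon, chr11:69466385-69466395: UGUuucucUGU
CCND1 GRE 2639 nt after the stop codon, chr11:69468681-69468691: UGUuUGUuauu

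The bin with most IP reads held 3 UGU triplets and lay directly before the distal GRE. It had 1076, 517 and 468 IP reads over 37, 17 and 16 input reads, or log2 ratios of 4.45, 4.69 and 4.09. The next bin, which contains that distal GRE, had 383, 167 and 170 IP reads over 27, 7 and 7, with log2 ratios of 3.40, 4.23 and 3.72. The GREs near the stop codon were in bins of lower ratio, namely 0.39, 1.90 and 1.30 at 138 nt and 0.73, 1.11 and 1.81 at 343 nt. Listed 3′ UTR bins of CCND1 away from any GRE had medians of 2.33, 2.88 and 2.87. The distal GRE was thus above that median in each sample and both proximal GREs were below it. The shared peak of CCND1 with the highest ratio in its lowest sample had 175, 69 and 145 IP reads over 5, 2 and 2 input reads. It contained no UGU. Other bins were higher in single samples, such as 1 with 451 IP over 9 input reads in SK-Mel-103.

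CCND3 differed from CCND1 in its listed bins (25, 29 and 34 of 220 possible), and CCND2 could not be compared. CCND3 (chromosome 6, 41902672 to 42018095, reverse strand) had 208, 163 and 232 IP reads over 180, 284 and 218 input reads, and no bin above 30 IP reads in any sample. Its log2 ratio was -0.17 (-0.46 to 0.13), -0.95 and -0.61 (UACC-62 mean -0.78 ± 0.24, SD, n = 2), so that CCND3 was near the average in SK-Mel-103 and lower in UACC-62. No GRE was found in its 3′ UTR of 1360 nt. CCND2 (chromosome 12, 4378937 to 4414519, forward strand), for which no bin was listed, carries 7 GRE stretches in the 5347 nt of its annotated 3′ UTR.

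CDK6, the kinase partner of D-type cyclins with the longest 3′ UTR of the group (10222 nt), gave the most reads of all members in UACC-62. Its exons (chromosome 7, 92234235 to 92465887, reverse strand) held 37946, 67890 and 78782 IP reads over 11085, 13117 and 11249 input reads. By IP reads it ranked 4th, 2nd and 3rd of all genes. The log2 ratio was 1.40 (1.37 to 1.43), 2.21 (2.19 to 2.24) and 2.11 (2.08 to 2.14), at percentiles 91.9, 96.7 and 95.6 (UACC-62 mean 2.16 ± 0.07, SD, n = 2).

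As with CCND1, the SK-Mel-103 ratio of CDK6 lay below both UACC-62 replicates, but the levels differed in another way. Input in RPKM was 112, 110 and 108, close to equal in the 3 samples. The IP level was 296 in SK-Mel-103 against 512 and 466 in UACC-62. The lower ratio of CDK6 in SK-Mel-103 therefore went with fewer IP reads, and that of CCND1 with more reads of both kinds.

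**Figure D3:**
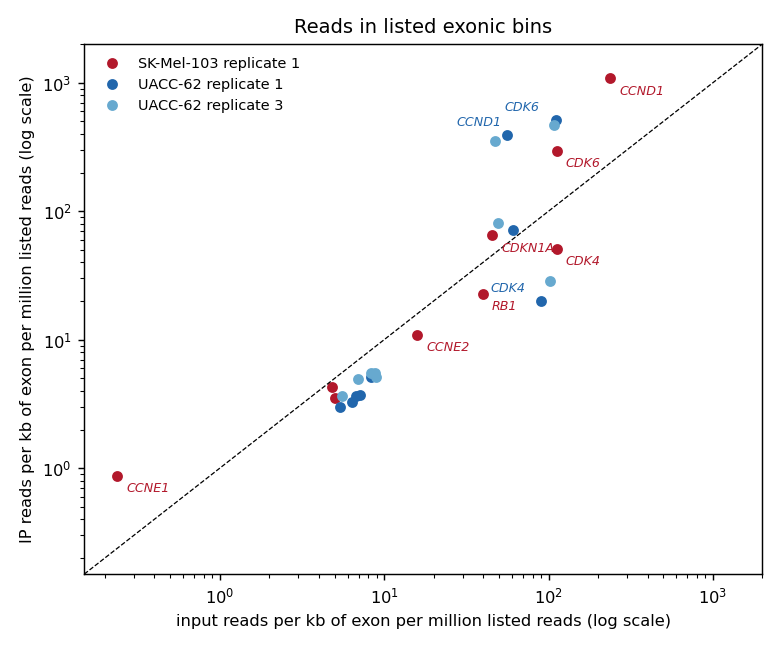
IP level against input level of the members, each in RPKM (reads per kb of exon and 1000000 listed reads) on log axes; colours mark the samples and the dashed line marks equal levels. CDK6 has nearly the same input level in the 3 samples (112, 110 and 108), and CCND1 moves along both axes. CDK4 lies below the line although its input in listed bins is near that of CDK6. Levels count reads in listed bins only, and a smaller part of the possible bins was listed for CDK4 than for CDK6.

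Most reads of CDK6 lay in its 3′ UTR, which makes up 10222 of its 11708 exonic nt. The 3′ UTR held 98.0%, 97.7% and 97.9% of the IP reads, above the shares of all genes given for CCND1. It also held 347 of the 355 shared peaks, with the other 8 in the coding region. Input lay there as well, since the log2 ratio of 3′ UTR bins alone was close to that of all exonic bins. It was 1.43 against 1.40 in SK-Mel-103, and 2.19 against 2.16 as the UACC-62 mean. Of its 3 equal stretches, the first gave log2 ratios of 2.12, 2.93 and 2.59, the middle one 0.50, 1.19 and 1.51, and the last one 1.19, 2.0 and 1.99. The stretch next to the stop codon was the highest and the middle one the lowest in each sample, whereas CCND1 had its maximum at the far end. IP reads of the 530 bins listed in all samples correlated at 0.97, 0.92 and 0.90 (Pearson) and their log2 ratios at 0.75, 0.69 and 0.72 (Spearman), for the sample pairs in the order given for CCND1.

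**Figure D4:**
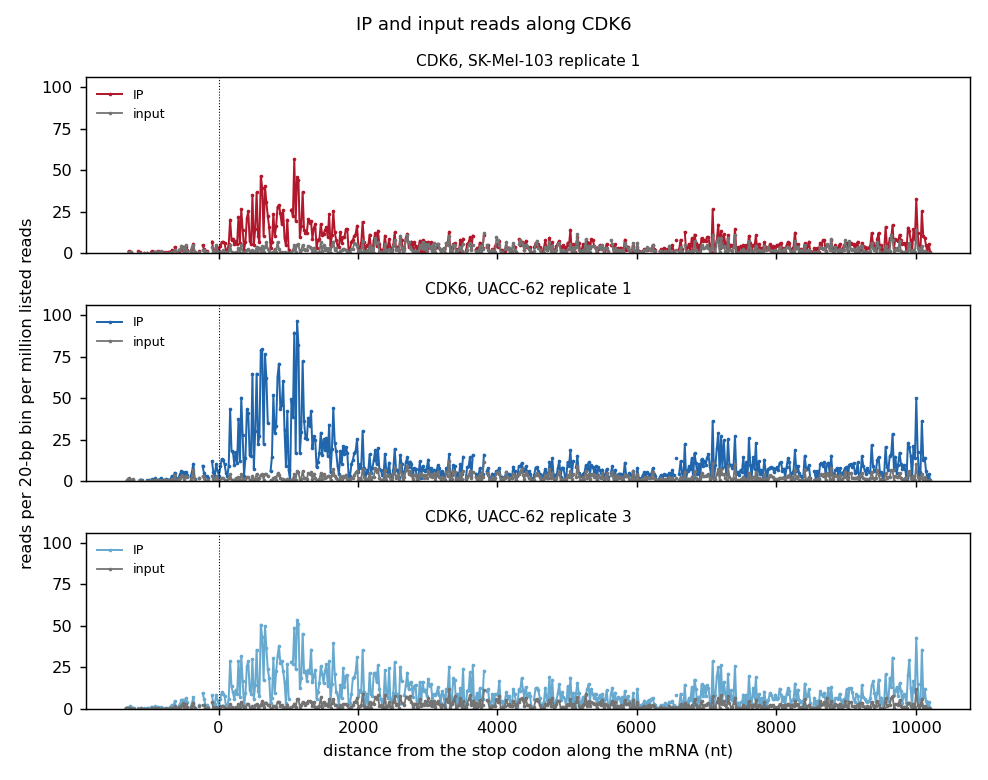
IP reads (coloured) and input reads (grey) of CDK6 in 20-bp bins, per 1000000 listed reads (y axis), against the distance from the stop codon along the mRNA in nt (x axis), with 1 panel per sample. IP reads are highest in the first of 3 equal stretches of the 3′ UTR (log2 ratios 2.12, 2.93 and 2.59), while input is spread evenly.

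GREs were more numerous in CDK6 than in any other member, with 10 stretches, and 6 of them lay in the first of the 3 stretches of the 3′ UTR. The sequences printed here are the bin inside an uninterrupted UG repeat of 33 nt (chr7:92244011-92244043, 414 to 446 nt after the stop codon), the bin over the UGUU repeat, and the bins with the most IP reads and the highest ratio. Most IP reads and highest ratio were ranked as for CCND1, and capitals again mark UGU.
CDK6 bin in the UG repeat, chr7:92244021-92244040: gUGUGUGUGUGUGUGUGUGU
CDK6 bin in the UGUU repeat, chr7:92244221-92244240: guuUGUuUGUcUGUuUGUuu
CDK6 bin with most IP reads, chr7:92243361-92243380: uacuuucugccacacacugc
CDK6 bin with highest ratio, chr7:92243521-92243540: uuucuucccuuuuuuUGUug

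The bin in the UG repeat had 276, 464 and 415 IP reads over 22, 23 and 26 input reads, with log2 ratios of 3.22, 4.12 and 3.25. That over the UGUU repeat had 60, 112 and 85 IP reads over 2, 1 and 3 input reads. The shared peak of CDK6 with the highest ratio in its lowest sample had log2 ratios of 5.78, 5.80 and 5.08. It had 284, 682 and 329 IP reads over 3, 10 and 5 input reads, was pyrimidine-rich and lay 7 nt from the nearest GRE. Other bins could be higher in a single sample, such as 1 with 85 IP reads and no input read in SK-Mel-103. The bin with most IP reads (623, 1015 and 707 over 41, 41 and 28) contained no UGU and lay 100 nt from a GRE. Repeats of this kind also occur elsewhere in the genome, and the part of misplaced reads in these bins was not tested.

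Over the whole 3′ UTR of CDK6, bins that overlapped a GRE had median log2 ratios of 3.17, 3.99 and 3.10 (20, 19 and 20 bins), and the remaining bins had 1.19, 1.81 and 1.95 (475, 482 and 483 bins). Within the first stretch alone, where most GREs lie, the medians were 3.53, 4.07 and 3.23 over 14 GRE bins and 2.08, 2.59 and 2.41 over the others. GRE bins were the higher in each sample on both counts. CCND1 had the opposite order over its 4 GRE bins, with medians of 0.56, 1.56 and 1.93 against the values of 2.33, 2.88 and 2.87 given for its other bins. Neighbouring bins may share fragments and are not independent, so no test was made.

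CDK4, the other kinase of D-type cyclins, was the member with the lowest ratio. Its exons (chromosome 12, 58141510 to 58149796, reverse strand) had 1358, 546 and 1004 IP reads over 2308, 2220 and 2212 input reads. The log2 ratio of CDK4 was -1.14, -2.18 and -1.84 (UACC-62 mean -2.01 ± 0.24, SD, n = 2), at percentiles 12.9, 6.56 and 7.54. In RPKM, its input level was 112, 90.0 and 102 and its IP level 51.0, 19.8 and 28.6. At a similar input level in listed bins, CDK4 thus had a far lower IP level than CDK6 in every sample. Of its 121 possible exonic bins, however, 54, 42 and 55 were listed, against 537, 550 and 554 of 585 for CDK6. Input in unlisted bins is unknown, so the full input levels of CDK4 and CDK6 cannot be compared.

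CDK4 carried 1 shared peak, which shows that a bin can be listed while its share of IP reads is below its share of input reads. The peak lay 260 nt after the stop codon, with 106, 43 and 54 IP reads over 117, 174 and 141 input reads, and its log2 ratios were -0.52, -2.15 and -2.07. Between 40.1% and 45.4% of CDK4 IP reads lay in bins that any of its coding transcripts places in a 3′ UTR, where no GRE was found. Some of these bins lie before the stop codon from which distances were counted. The other IP reads lay mostly in the coding region. The peak is printed with the strongest bins of the CDK inhibitors and of RB1, since these show UGU triplets on both sides of the input level.
CDK4 shared peak, chr12:58142041-58142060: uccuuuuuuauacaggaaaa
CDKN1A bin with most IP reads, chr6:36655061-36655080: aaugcugaauauacagcagg
CDKN1A bin with highest ratio, chr6:36654961-36654980: cccaUGUGUccugguucccg
CDKN1B bin with most IP reads, chr12:12874201-12874220: auUGUacuaccUGUGUauau
RB1 bin with most IP reads, chr13:49055241-49055260: agguuUGUGUuuucucugga

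CDKN1A, which encodes the p53-inducible CDK inhibitor p21, was moderately above input. Its exons (chromosome 6, 36644237 to 36655114, forward strand) held 1743, 2004 and 2866 IP reads over 944, 1523 and 1084 input reads. The log2 ratio of CDKN1A was 0.51 (0.40 to 0.63), 0.24 (0.14 to 0.34) and 0.70 (0.60 to 0.81), with a UACC-62 mean of 0.47 ± 0.33 (SD, n = 2). SK-Mel-103 lay between the UACC-62 replicates, and the percentiles were 75.1, 73.1 and 78.8, far below those of CCND1 and CDK6.

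The 11 shared peaks of CDKN1A lay in its 3′ UTR, and 50.2%, 49.6% and 52.3% of its 3′ UTR IP reads fell in the last of 3 equal stretches. Input was distributed in much the same way, with 45.1%, 47.3% and 50.2% of its reads there. The bin with most reads lay 1497 nt after the stop codon, near the end of the message, with 113, 172 and 252 IP reads over 29, 91 and 73 input reads. Its single GRE stretch was 86 nt after the stop codon, and no shared peak overlapped it. IP reads of 78 bins correlated at 0.92, 0.91 and 0.95 between samples, but the log2 ratios of the same bins at 0.36, 0.17 and 0.26 (Spearman) only. The input reads of these bins correlated at 0.81, 0.82 and 0.82 (Spearman).

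**Figure D5:**
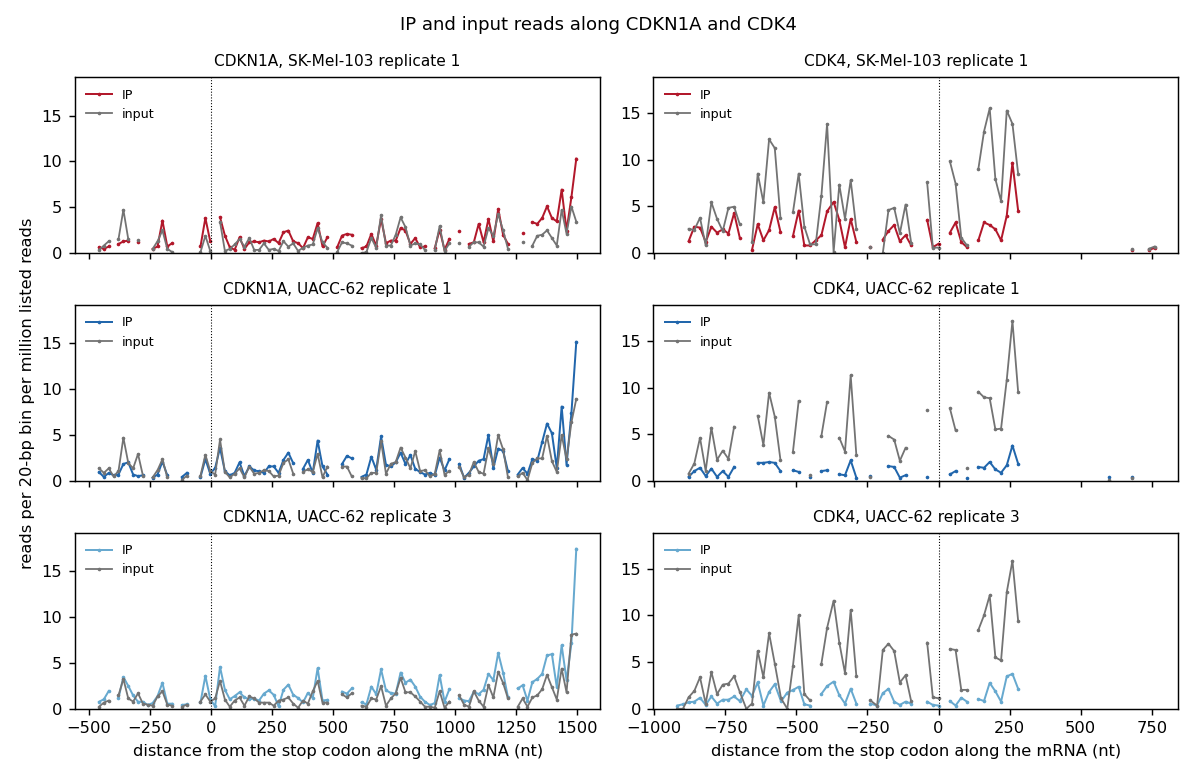
IP reads (coloured) and input reads (grey) in 20-bp bins of CDKN1A (left) and CDK4 (right), per 1000000 listed reads (y axis), against the distance from the stop codon along the mRNA in nt (x axis), with 1 row of panels per sample. IP of CDKN1A runs close to input and rises at the 3′ end, whereas IP of CDK4 lies under input over most bins.

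CDKN1B, encoding the CDK inhibitor p27, was below input in each sample (chromosome 12, 12838432 to 12875303, forward strand). It had 173, 260 and 332 IP reads over 190, 379 and 356 input reads, and log2 ratios of -0.51, -0.70 and -0.80 (UACC-62 mean -0.75 ± 0.07, SD, n = 2). Its strongest bin, printed above with 3 UGU triplets, had 12, 22 and 28 IP reads over 19, 41 and 31 input reads. In listed bins, the inhibitors thus lay on opposite sides of the average, with CDKN1A higher in all samples. Only 23, 28 and 37 of 224 possible exonic bins were listed for CDKN1B, against 81, 88 and 90 of 122 for CDKN1A. Input in unlisted bins is unknown, so the whole messages cannot be compared.

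RB1, the target of the G1 kinases (chromosome 13, 48877880 to 49173572, forward strand), had 1270, 174 and 406 IP reads over 1728, 279 and 378 input reads. Its log2 ratio was -0.82, -0.84 and -0.59 (UACC-62 mean -0.72 ± 0.17, SD, n = 2). The ratios overlapped between the lines. The input level of RB1 in listed bins was 39.9 RPKM in SK-Mel-103, and 5.35 and 8.28 in UACC-62. These levels rest on 113, 29 and 53 listed bins of 254 possible. Input in unlisted bins is unknown, so they do not measure a difference in RB1 RNA between the lines. The strongest RB1 bin, with 2 UGU triplets, had 52, 8 and 19 IP reads over 60, 12 and 21 input reads. The bins printed for RB1 and CDKN1B thus held UGU triplets at ratios below the average in each sample. They are 1 bin per gene with few reads, and a link of UGU to the ratio was not tested.

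The E-type cyclins, partners of CDK2, were sparsely listed. CCNE1 had 19, 83 and 159 IP reads over 4, 144 and 156 input reads, in 3, 15 and 24 of its 98 possible exonic bins. Its log2 ratio was 1.63 (0.28 to 3.89), -0.95 and -0.67 (UACC-62 mean -0.81 ± 0.19, SD, n = 2). The SK-Mel-103 value stood above both UACC-62 values, but it rests on 3 bins. CCNE2 had 437, 149 and 260 IP reads over 487, 248 and 225 input reads, with log2 ratios of -0.53, -0.89 and -0.49 (UACC-62 mean -0.69 ± 0.28, SD, n = 2), and SK-Mel-103 lay between the replicates. A single CCNE2 bin had more than 30 IP reads, with 37 in SK-Mel-103.

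Between the lines, SK-Mel-103 exceeded both UACC-62 replicates for CCND3, CCNE1, CDK4 and CDKN1B, 4 of the 9 measured members, while 57.8% of all measured genes did so. It was below both for CCND1 and CDK6, 2 members, against 21.4% of all genes. The median gene itself was higher in SK-Mel-103 (-0.20) than in the UACC-62 samples (-0.61 and -0.39). Relative to the median gene of each sample, SK-Mel-103 remained above both replicates for CCND3, CCNE1 and CDK4, 3 members, and was below both for CCND1, CDK6, CCNE2, CDKN1A and RB1, 5 members. CCND1 and CDK6 thus kept their order between the lines under both scales, and CDKN1B, CCNE2, CDKN1A and RB1 did not. The shares of all genes above or below both replicates were not computed on the centred scale, so those 2 counts of members have no background beside them.

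GREs within 2 mismatches were found in the annotated 3′ UTRs of 7 of the 10 members, against 55.3% of the 19708 protein-coding genes with a 3′ UTR, and were absent from CCND3, CDK4 and CCNE1. CDK6 alone held stretches without any mismatch. CCND2, CDK6 and CDKN1B held at least 1 with no more than 1 mismatch. The number of stretches per kb of 3′ UTR was 0.978 in CDK6, 0.872 in CCND1 and 0.649 in CDKN1A, beside 0.774 over all genes. RB1 (1.49), CCNE2 (1.4) and CCND2 (1.31) had more per kb than CDK6 or CCND1, and no shared peak. A shared peak needs more than 30 IP reads in the same bin of every sample, which messages with few reads can hardly reach. RB1 had 1270, 174 and 406 IP reads, CCNE2 437, 149 and 260, and CCND2 was not listed. Their lack of a shared peak therefore cannot be set against their GRE density. A UGU was present in 39.1% of the 128 shared 3′ UTR peaks of CCND1 and 37.8% of the 347 of CDK6. These shares were near the 40.5% over all shared 3′ UTR peaks and above the 31.9% over all 20-nt windows of 3′ UTRs. The share was 27.3% of the 11 of CDKN1A, below that of all windows, and the 1 shared peak of CDK4 had no UGU.

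Among 26 other genes of the G1/S transition, 4 had a shared peak, against 8.71% of all protein-coding genes, measured or not. Of the 22 measured, 3 were above input in all samples, against 27.2% of all measured genes. Another 14 were below, against 50.5%, and 5 were of mixed sign. The median log2 ratios of these 22 genes were -0.66, -0.84 and -0.72. E2F3, an activating E2F factor, had 12 shared peaks and ratios of 2.16, 2.81 and 2.12. TFDP1, the dimerisation partner of E2F factors, had 55 shared peaks and ratios of 1.77, 2.09 and 2.40. CKS1B, a small CDK-binding protein, had 10 shared peaks with ratios of 1.08, -0.10 and 0.94, and CDK2, the kinase of E-type cyclins, had 1 with ratios of -0.57, -0.98 and -0.51. The ratios of E2F3 and TFDP1 lay within the range from 1.40 to 2.91 that CDK6 and CCND1 spanned, and CDK2 was below the average like CDK4.

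The genes whose 3 log2 ratios were nearest to those of CCND1, by Euclidean distance among 5173 genes with at least 100 IP reads in every sample, were POLR2M (2.06, 2.83 and 2.82, distance 0.156) and DCAF7 (2.06, 2.90 and 2.97, distance 0.170). Those nearest to CDKN1A were PPP3R1 (0.53, 0.25 and 0.74, distance 0.0459) and ZNF417 (0.44, 0.24 and 0.72, distance 0.0745). In each of these genes, the difference from its member was smaller than 0.2 in every sample.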

How the data were processed

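The authors aligned reads to GRCh37 as first-strand libraries and called enriched 20-bp bins with Piranha, each IP against its own input, and their settings kept reads that match several places. The submitters' processing notes name TopHat2 2.0.4, Bowtie 0.12.7 and SAMtools 0.1.16. The IP read counts were deposited by the authors per bin, without normalization, in passing bins only. Its p-value was deposited by the authors unchanged from the caller. The last column, deposited by the authors, is a ratio of input reads (0.01 where there was none), from which whole input reads were recovered as multiples of its smallest step. The 3 input samples were used only through that column.

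The transcript strand was the reverse of the listed strand, and bins were placed by their centre in exons of GENCODE version 44 (GRCh37), with 3′ UTR before coding region before 5′ UTR. Log2 ratios used a pseudocount of 1 read and, for a gene, at least 20 reads in every sample. Intervals are 95% Clopper-Pearson. The depth, in listed reads, opens the report, and 9.69%, 15.9% and 29.2% of bins had no input read. Scripts (Python 3.11.15, pandas 2.3.3, SciPy 1.17.1, pysam 0.24.0) were tested on simulated data. No test was run, since SK-Mel-103 had 1 sample and listing depended on the ratio. Members and lists were chosen with earlier results of these data known. All 10 members were named, of the other G1/S genes those with a shared peak and the highest ratios (at most 5), and the 2 genes nearest to CCND1 and to CDKN1A. The marker PECAM1 was not matched. Alternatives covered filters, strand, region, scaling and left-out replicates.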

Additional observations from a re-analysis of the deposited data

Results flagged for a closer look

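The log2 ratio of CCNE1 was 1.63 in SK-Mel-103 and values of the other sign in both UACC-62 replicates (-0.95 and -0.67). The difference was not tested, and the SK-Mel-103 value rests on 3 bins with 19 IP and 4 input reads.

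Intronic bins were not used in the comparisons. Those of CDK6, a gene with long introns, were above the average in each sample, the lowest of the 3 log2 ratios being 0.93 in SK-Mel-103 (229 bins with 1244 IP and 502 input reads), with 1.60 and 4.14 in UACC-62 (45 and 69 bins). The intronic bins of RB1 had 1.45 as their lowest value, in SK-Mel-103 (66 bins with 381 IP and 107 input reads), and 4.21 and 1.94 in UACC-62. The median over 3520 genes with measured introns was 1.57, 2.16 and 3.0, and 62 of the 69 intronic CDK6 bins of UACC-62 replicate 3 had no input read.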

How the results depend on the processing

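CCND1, CDK6 and CDKN1A were above input in all samples under every alternative except that of taking the listed strand as the transcript strand, where no member was measured and the counts of members above input, with a shared peak, or with SK-Mel-103 outside UACC-62 were all 0. Without the filter on reads, 9 members had a shared peak. With bins of more than 30 IP reads alone, 4 members were measured, their lowest sample median changed sign to 1.11, SK-Mel-103 lay outside UACC-62 for 3 members, and the 3′ UTR share was 97.7%. That median, -0.84 by the main processing, was -0.59 with totals over exonic bins, -0.22 when centred on the median gene and -0.60 as a median over bins, and ranged from -0.84 to -0.59 with 1 UACC-62 replicate left out. GREs were found in 3 members with 1 mismatch, 1 without mismatch and 3 within 100 nt of a shared peak. Of the values for single genes, given as the SK-Mel-103 value and the UACC-62 mean, 118 changed by less than the counting interval or the spread between replicates, and 64 moved further. Of these values, 4 had the other sign, all for CCND3 in SK-Mel-103 (-0.17), which was 0.21 without totals, 0.02 with exonic totals, 0.03 when centred and 0.14 as a median over bins. Scaling moved the split of all genes above and below input from 27.2% and 50.5% to 34.0% and 32.6% without totals, 32.8% and 44.1% with exonic totals and 39.1% and 39.2% when centred. Without totals, CCND3, CCNE2 and RB1 were no longer below 0 in all samples, and with exonic totals, centring or the median over bins CCND3 alone was not. No paired analysis was possible because no result comes from a test, and each IP was already set against its own input. Low reads limit CCNE1 most.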

Other observations

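CDKN2A, which encodes the CDK4 and CDK6 inhibitor p16, had no listed bin in either UACC-62 sample, beside 288 reads of IP and 410 of input in SK-Mel-103. E2F2, another activating E2F factor, had log2 ratios of 1.02, 0.84 and 1.05 with 49, 33 and 36 IP reads and no shared peak. SKP2, the F-box protein known for marking p27 for degradation, had -1.43, -1.52 and -1.30, and CUL1, a subunit of the same ligase, had -0.86, -1.90 and -1.70. CCNA2, the cyclin that follows the E-type cyclins, had -1.19, -1.85 and -1.60. These genes were picked from the list after their values were seen. Reads on the strand opposite to the exons of the members were few, with 68 IP reads of RB1 in UACC-62 replicate 3 as the highest number.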
